A study of Mus musculus with 5 samples.

Results

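The miR-17-92 and miR-106a-363 clusters are related groups of microRNA (miRNA) hairpins, each transcribed as 1 long RNA. The 10 entries described here are the main arms of both clusters, meaning the strand of each hairpin that usually makes up the mature miRNA, among 1316 miRNA entries in the series. Of these, 4 come from miR-17-92 alone (mmu-miR-17-5p, mmu-miR-18a-5p, mmu-miR-19a-3p and mmu-miR-20a-5p; the prefix for mouse is left out below) and 4 from miR-106a-363 alone (miR-106a-5p, miR-18b-5p, miR-20b-5p and miR-363-3p). The remaining pair, miR-19b-3p and miR-92a-3p, has a hairpin in each cluster and the same mature sequence from both, so their reads cannot be assigned to either. Sums over a cluster below therefore hold the 4 arms made by it alone.

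Small RNAs of 18 to 32 nucleotides were sequenced in 5 mouse libraries, 1 per cell type. Primordial germ cells, the fetal precursors of sperm and egg, came from gonads of CD-1 male fetuses at 13.5 days post coitum and were caught on beads against CD15. Spermatogonia, the mitotic germ cells of the testis, came from CD-1 testes at 8.5 days after birth, after somatic cells had been left to adhere for 3 to 4 hours. Spermatozoa came from the cauda epididymis and vas deferens of mature CD-1 males, taken through a Percoll gradient and a hypo-osmotic shock. Metaphase II oocytes (15210 cells) and zygotes at 15 to 18 hours after fertilization (15416 cells) came from superovulated C57BL/6 females aged 4 to 5 weeks, given 5 IU of pregnant mare serum and, 48 hours later, 5 IU of human chorionic gonadotropin, and freed of cumulus cells and zona. The fathers of the zygotes were DBA/6J. No group carried a genetic change. How many animals were pooled is not given in the sources used here. With 1 library per cell type there is no replicate spread and no test between cell types. Preparation and cell type cannot be told apart. Strain cannot be told apart from them in comparisons with the oocyte or zygote, while the male germ cell libraries were all CD-1.

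Members of these clusters are classed by their seed, the bases 2 to 8 that pair with target mRNAs. Arms with the miR-17 seed are known to act on inhibitors of the cell cycle and on E2F factors, and those with the miR-92 seed on the cell death gene Bcl2l11. In mice miR-17-92 is needed for survival after birth and for B cell and lung development, loss of miR-106a-363 alone gives little phenotype, and both have been studied in primordial germ cells and in spermatogonial differentiation.

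The mature sequences show how close the counterparts in both clusters are, which bears on how well reads can be told apart. They are from RefSeq (GRCm38.p6), 5′ to 3′, with the seed in capitals. Arms with the miR-17 seed are listed first, then those with the miR-18, miR-19 and miR-92 seeds. The last lines hold the arms of the third paralogous cluster, miR-106b-25, that share a seed with them.
mmu-miR-17-5p: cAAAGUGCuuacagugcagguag
mmu-miR-20a-5p: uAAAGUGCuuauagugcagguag
mmu-miR-106a-5p: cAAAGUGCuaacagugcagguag
mmu-miR-20b-5p: cAAAGUGCucauagugcagguag
mmu-miR-18a-5p: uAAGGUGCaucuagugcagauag
mmu-miR-18b-5p: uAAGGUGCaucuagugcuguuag
mmu-miR-19a-3p: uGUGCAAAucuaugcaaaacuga
mmu-miR-19b-3p: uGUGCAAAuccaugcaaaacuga
mmu-miR-92a-3p: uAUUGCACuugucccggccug
mmu-miR-363-3p: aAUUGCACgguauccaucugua
mmu-miR-93-5p: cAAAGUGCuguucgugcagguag
mmu-miR-106b-5p: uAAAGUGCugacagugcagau
mmu-miR-25-3p: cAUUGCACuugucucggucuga

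Counted from 1 at the 5′ end, miR-17-5p and miR-106a-5p were identical at 22 of 23 bases and differed by U10A. Between miR-20a-5p and miR-20b-5p the differences were U1C and U10C, and between miR-18a-5p and miR-18b-5p they were A18U and A20U. A single base, U11C, separated miR-19a-3p from miR-19b-3p. In contrast miR-92a-3p and miR-363-3p shared the seed but differed at 11 of the 21 bases compared. A read with an error at a differing base could fit both paralogs. From base 1, reads of 18 or more nucleotides reach a differing base in each of these pairs. The deposited read values have fractions in 4 of the 5 libraries, as reads divided between entries would give. Among the miR-106a-363 arms, miR-106a-5p and miR-20b-5p had fractions, so their low values may hold such reads. No fractions were seen for miR-18b-5p and miR-363-3p.

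In GRCm38, the assembly also called mm10, the miR-17-92 hairpins lie on the plus strand at chr14:115043671-115044506, a span of 836 bp holding 6 hairpins in the order Mir17, Mir18, Mir19a, Mir20a, Mir19b-1 and Mir92-1. All 6 fall in an exon of the long noncoding host gene Mir17hg (chr14:115042879-115046727, GENCODE vM21). The miR-106a-363 hairpins lie on the minus strand at chrX:52741693-52742567, a span of 875 bp holding Mir106a, Mir18b, Mir20b, Mir19b-2, Mir92-2 and Mir363. Of these, Mir106a overlaps an exon of the noncoding transcript Kis2 by 5 bases, and the other 5 overlap no other annotated gene on that strand.

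Levels are given as reads per 1000000 miRNA reads of the library (RPM). The libraries held 12004614 miRNA reads in primordial germ cells, 10657432 in the spermatogonia, 1216358 in the spermatozoa, 2010462 in oocytes and 2327081 in zygotes. A value of 0 reads allows up to 3 reads, which is 0.250 RPM in primordial germ cells and 2.47 RPM in spermatozoa. Intervals are at 95%, exact except where a ratio is compared between libraries, cover counting error only, and take no account of PCR copies, which are not independent molecules. Marker miRNAs of pluripotent and early germ cells summed to 28654 RPM in primordial germ cells, where all 6 were above 0, and to 60.0 RPM in spermatozoa. Those of late spermatogenesis summed to 231417 RPM in spermatozoa and at most 8245 RPM elsewhere. Markers of smooth muscle and peritubular cells, miR-143 and miR-145a arms with all 4 above 0 in every library, summed to 9261 RPM in primordial germ cells, 233110 in the spermatogonia, 230783 in the spermatozoa, 26563 in oocytes and 20992 in zygotes. Markers of gonadal soma were highest in spermatogonia (14999 RPM, lowest in spermatozoa at 104), endothelial ones in spermatogonia (9053 RPM, lowest in the zygote at 96.7), and epithelial (22789 RPM), erythroid (19438 RPM) and leukocyte ones (3095 RPM) in spermatozoa. Not every marker followed its sum. Leukocyte miR-155-5p was at 48.5 RPM in spermatozoa, 1384 in oocytes and 1554 in zygotes, and epithelial miR-200c-3p at 7404, 8355 and 6718. The other leukocyte and epithelial markers were highest in spermatozoa. The smooth muscle sum was mostly miR-143-3p (230893 RPM in spermatogonia, 230279 in spermatozoa), while miR-145a-5p stood at 2149 and 459. In bulk RNA, fewer cells of a type and less RNA per cell cannot be told apart, and the part of these other cells in the levels below was not tested.

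Both clusters were highest in primordial germ cells, but they differed in what was left in the other libraries. The miR-17-92 sum was 30559 RPM in primordial germ cells, 3720 in the spermatogonia, 5474 in the spermatozoa, 7779 in oocytes and 8626 in zygotes. The miR-106a-363 sum was 12052 RPM in primordial germ cells, 143 in the spermatogonia, 7.54 in the spermatozoa, 44.2 in oocytes and 34.5 in zygotes. In RPM, miR-17-92 was thus within 10-fold of its highest level in all 5 libraries, while miR-106a-363 was at a high level in 1. The scaling also matters here. In reads per 1000000 reads of all 4 small RNA tables (all-table RPM), of which miRNAs took 45.2% in primordial germ cells, 40.5% in the spermatogonia, 5.57% in the spermatozoa, 4.65% in oocytes and 5.38% in zygotes, miR-17-92 was at 13810, 1505, 305, 362 and 464, no longer within 10-fold. The miR-106a-363 sum on that scale was 5447, 58.0, 0.420, 2.05 and 1.86. Together the 10 main arms took 5.20% of miRNA reads in primordial germ cells, 0.768% in the spermatogonia, 0.861% in the spermatozoa, 1.38% in oocytes and 1.33% in zygotes.

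The ratio of the clusters within a library does not depend on how libraries are scaled. The miR-106a-363 sum was 39.4% of the miR-17-92 sum in primordial germ cells (interval 39.2% to 39.7%). It was 3.85% in spermatogonia (3.66% to 4.06%), a 10.2-fold lower ratio than in primordial germ cells (9.72 to 10.8). In spermatozoa it was 0.138% (0.0618% to 0.257%), resting on 9.17 reads of miR-106a-363 against 6659 of miR-17-92. The oocyte gave 0.568% (0.457% to 0.701%) and the zygote 0.400% (0.316% to 0.496%). The ratio was thus highest in primordial germ cells, followed by spermatogonia, with the 3 gamete and zygote libraries all under 1%. The intervals of the oocyte and zygote overlapped each other, although the ratio between them, 1.42, had an interval of 1.05 to 1.92, and neither overlapped that of spermatozoa.

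**Figure D1:**
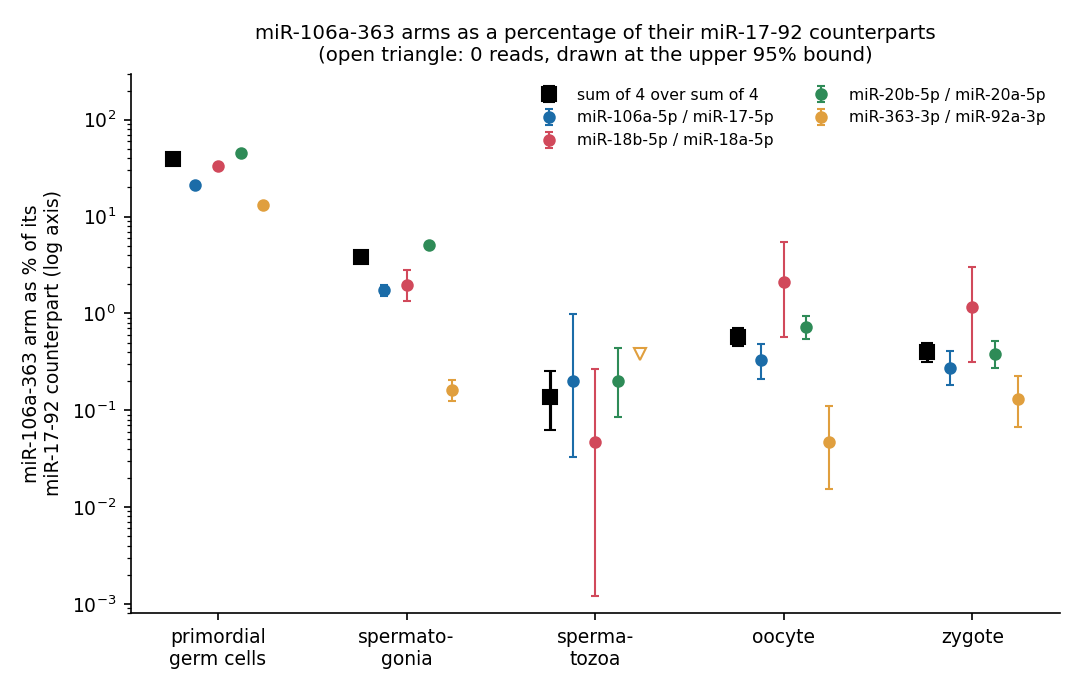
Reads of each miR-106a-363 arm as a percentage of its miR-17-92 counterpart (log axis) in the 5 libraries, with exact 95% intervals; black squares give the 4-arm sums, and miR-92a-3p can come from either cluster. The sums go from 39.4% in primordial germ cells to 3.85% in spermatogonia and to under 1% in the other libraries.

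In each paralog pair the percentage was highest in primordial germ cells. As a percentage of miR-17-5p, miR-106a-5p was 21.1% in primordial germ cells, 1.73% in the spermatogonia, 0.202% in the spermatozoa, 0.328% in oocytes and 0.274% in zygotes. The percentage of miR-20b-5p to miR-20a-5p was 44.8%, 5.07%, 0.202%, 0.715% and 0.378% in the same order of libraries. For miR-18b-5p to miR-18a-5p it was 33.4%, 1.97%, 0.0472%, 2.11% and 1.17%, the last 3 resting on 1, 4 and 4 reads of miR-18b-5p. In the miR-18 pair the oocyte (interval 0.568% to 5.48%) and the zygote (0.316% to 3.01%) thus overlapped spermatogonia (1.33% to 2.81%), unlike in the miR-17 and miR-20 pairs. The most diverged pair, miR-363-3p to miR-92a-3p, which differs at the most bases, went from 13.2% in primordial germ cells to 0.161% in spermatogonia, and to 0.0474% in oocytes and 0.130% in zygotes. With 0 reads of miR-363-3p against 975 of miR-92a-3p in spermatozoa, the upper bound there was 0.379%. In this pair the interval of spermatogonia (0.124% to 0.207%) overlapped those of the zygote (0.0674% to 0.228%) and spermatozoa.

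The most abundant arm of miR-106a-363 was miR-20b-5p, with 7956 RPM in primordial germ cells, 111 in the spermatogonia, 5.48 in the spermatozoa, 27.2 in oocytes and 16.7 in zygotes. It ranked 26th among miRNAs of primordial germ cells and 217th in spermatogonia. The second, miR-106a-5p, was at 2065, 23.2, 1.23, 12.5 and 11.0 RPM in the same order. For miR-363-3p the levels were 1098, 5.82, 0, 2.49 and 5.16 RPM, and for miR-18b-5p they were 933, 2.91, 0.822, 1.99 and 1.72 RPM. Primordial germ cells held between 97.7% (miR-106a-5p) and 99.2% (miR-18b-5p) of the RPM summed over the 5 libraries. Among the other 4 libraries many neighbours in order could not be separated. The intervals of the oocyte and the zygote overlapped for all 4 arms. For miR-18b-5p and miR-363-3p no interval among these libraries was clear of its neighbour. The highest library exceeded the lowest by 1452-fold for miR-20b-5p. For miR-363-3p, against the 3-read limit in spermatozoa, it was at least 445-fold.

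**Figure D2:**
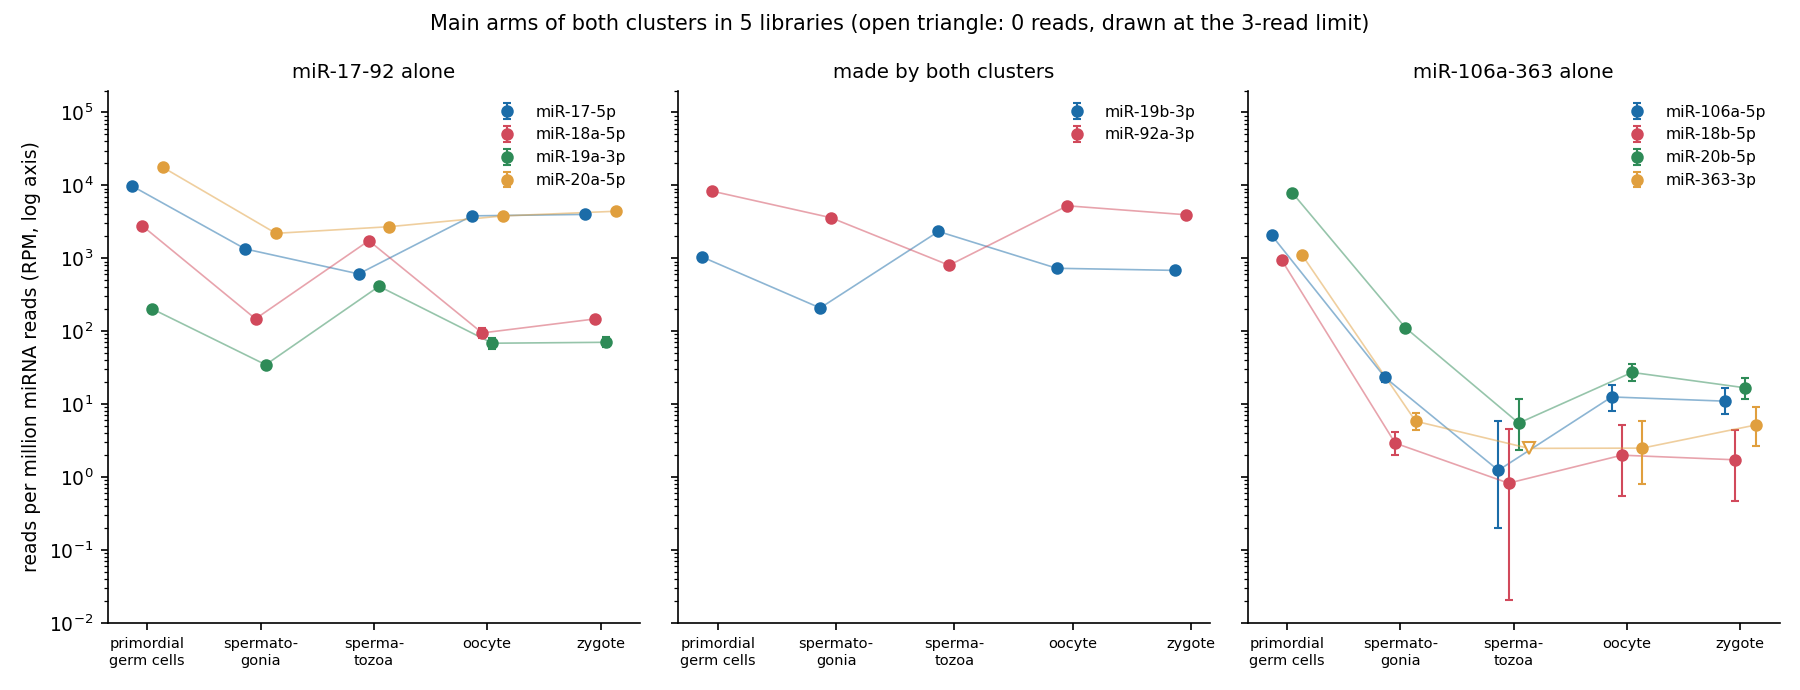
Level of each main arm (RPM, log axis) in the 5 libraries, 1 library per point, with exact 95% intervals. The 4 arms of miR-106a-363 alone lie at 933 to 7956 RPM in primordial germ cells and at 111 RPM or less elsewhere, whereas those of miR-17-92 alone stay between 34.6 and 17758 RPM.

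Of the miR-17-92 arms, miR-20a-5p was the most abundant in primordial germ cells, spermatogonia, spermatozoa and the zygote. Its levels were 17758 RPM in primordial germ cells, 2197 in the spermatogonia, 2709 in the spermatozoa, 3803 in oocytes and 4413 in zygotes. It ranked 13th of all miRNAs in primordial germ cells. For miR-17-5p, with the same seed, the levels were 9808, 1341, 610, 3814 and 3995 RPM. Both were highest in primordial germ cells, but the lowest library in RPM was spermatogonia for miR-20a-5p (spermatozoa in all-table RPM) and spermatozoa for miR-17-5p (on both scales). The oocyte held nearly equal reads of both (ratio of miR-20a-5p to miR-17-5p 0.997, interval 0.966 to 1.03), and spermatozoa the highest ratio, 4.44 (4.10 to 4.82).

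Spermatozoa stood out in miR-18a-5p, miR-19a-3p and miR-19b-3p. The level of miR-18a-5p was 2791 RPM in primordial germ cells, 148 in the spermatogonia, 1743 in the spermatozoa, 94.5 in oocytes and 147 in zygotes. For miR-19a-3p it was 201, 34.6, 412, 68.3 and 70.3 RPM, and for miR-19b-3p, made by both clusters, 1045, 208, 2331, 729 and 682 RPM. In RPM the miR-19 arms were the 2 members whose highest library was spermatozoa, with spermatogonia the lowest, whereas in all-table RPM primordial germ cells were the highest (91.0 against 23.0 for miR-19a-3p) and oocytes the lowest. Intervals of the oocyte and the zygote overlapped for both miR-19 arms, as did those of spermatogonia and the zygote for miR-18a-5p. Spermatozoa were also the library with the highest sums of erythroid, epithelial and leukocyte markers given above, 19438, 22789 and 3095 RPM. Single epithelial and leukocyte markers were higher elsewhere, and the part of erythroid, epithelial and leukocyte cells in these 3 levels was not tested. Conversely, miR-92a-3p was lowest in spermatozoa, with 8304 RPM in primordial germ cells, 3605 in the spermatogonia, 802 in the spermatozoa, 5241 in oocytes and 3953 in zygotes.

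The make-up of the miR-17-92 sum shifted accordingly. In primordial germ cells it was 58.1% miR-20a-5p, 32.1% miR-17-5p, 9.13% miR-18a-5p and 0.659% miR-19a-3p. In spermatozoa it was 49.5% miR-20a-5p, 31.8% miR-18a-5p, 11.1% miR-17-5p and 7.53% miR-19a-3p. In the oocyte miR-17-5p (49.0%) and miR-20a-5p (48.9%) left 1.21% for miR-18a-5p and 0.878% for miR-19a-3p. Set against miR-17-5p of the same library, miR-18a-5p stood at 0.285 in primordial germ cells, 0.110 in the spermatogonia, 2.86 in the spermatozoa, 0.0248 in oocytes and 0.0369 in zygotes. The ratio in spermatozoa was 26.0-fold that in spermatogonia (interval 23.5 to 28.6) and 115-fold that in the oocyte (97.6 to 136). For miR-19a-3p and miR-19b-3p over miR-17-5p, spermatozoa exceeded spermatogonia by 26.2-fold and 24.6-fold. These ratios need no scaling between libraries. The 2 arms of the miR-19 seed kept a similar ratio in the male germ cells, with miR-19b-3p at 5.19 times miR-19a-3p in primordial germ cells, 6.01 in spermatogonia and 5.65 in spermatozoa, and at 10.7 and 9.69 times in the oocyte and zygote.

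**Figure D3:**
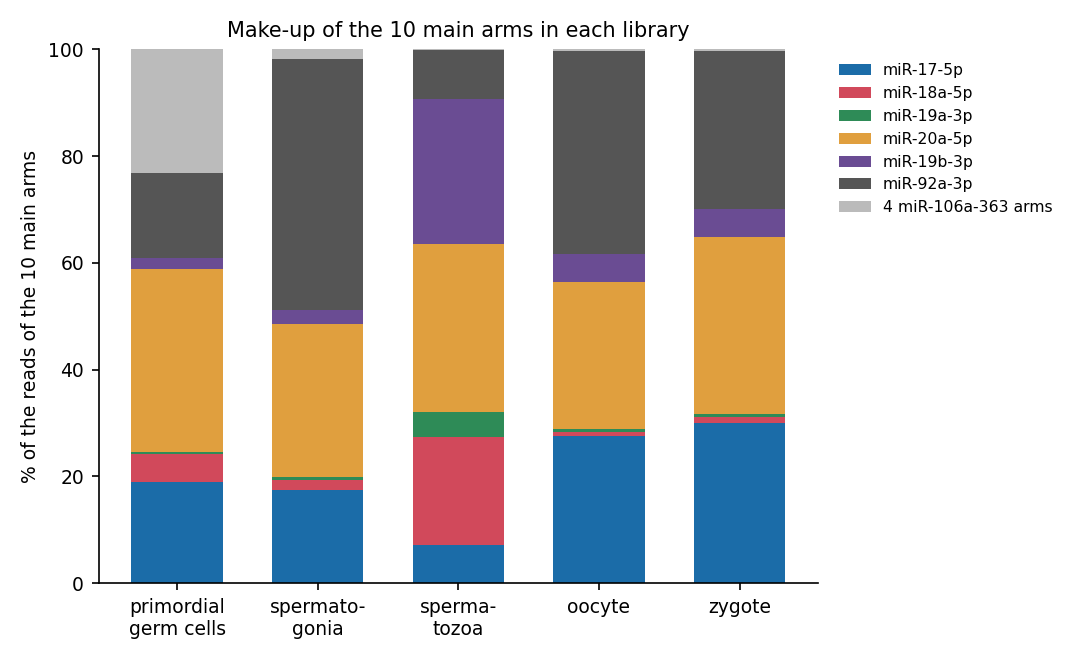
Share of each main arm among the reads of the 10 main arms, in percent, in the 5 libraries. In spermatozoa miR-18a-5p (20.2%) and miR-19b-3p (27.1%) take far larger shares than in the other libraries, and the 4 miR-106a-363 arms are visible as a wide band in primordial germ cells alone.

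Between primordial germ cells and spermatogonia, 9 of the 10 members were at least 4-fold lower in spermatogonia and 0 were higher. Among all 530 miRNAs with at least 100 reads over the pair, the limit used for every count of this kind, 12.6% were at least 4-fold lower, 25.7% higher, and so 38.3% apart in either direction. The median log2 ratio of spermatogonia to primordial germ cells was -3.63 for the members and 0.65 for all these miRNAs. The miR-106a-363 arms were the lowest, with 321-fold lower miR-18b-5p, 189-fold lower miR-363-3p, 89.1-fold lower miR-106a-5p and 71.4-fold lower miR-20b-5p. Those of miR-17-92 ranged from 5.82-fold (miR-19a-3p) to 18.9-fold lower (miR-18a-5p). Of the lower members, miR-18b-5p and miR-363-3p had 31 and 62 reads in spermatogonia and passed the read minimum through primordial germ cells. Their place in the count and in the median therefore follows in part from that minimum. Nearest to the 4-fold limit were miR-19b-3p inside it, at 5.02-fold lower, and miR-92a-3p outside it, at 2.30-fold lower. For the sums, miR-17-92 was 8.21-fold lower (interval 8.13 to 8.30) and miR-106a-363 84.1-fold lower (79.9 to 88.5).

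The libraries also differed in other miRNAs, and RPM values are relative to the total of all miRNAs. A single marker of smooth muscle and peritubular cells, miR-143-3p, took 0.923% of miRNA reads in primordial germ cells but 23.1% in spermatogonia. When the most abundant miRNAs of each library (5 from each, 17 in all) were left out of the totals, 9 of 10 members were likewise at least 4-fold lower. Under the 5 other scalings that were tried, the ratios of this comparison moved by a log2 value of between -0.71 and -0.16, and the count was 9 under each, beside backgrounds of 13.2% to 18.5% lower and 18.5% to 24.2% higher. The miRNA table of spermatogonia was the one without fractional reads, for a reason not given in the sources used here, and the part of this in the ratios with spermatogonia was not tested.

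Between spermatogonia and spermatozoa the 2 clusters differed, with miR-106a-363 lower in spermatozoa and miR-17-92 mixed. Of 8 members with enough reads, 3 were at least 4-fold higher in spermatozoa, where the background was 14.9% of 471 miRNAs, and 3 at least 4-fold lower, where it was 37.2% (52% in either direction). The count of lower members was thus near its background. Higher were miR-19a-3p (11.9-fold), miR-18a-5p (11.8-fold) and miR-19b-3p (11.2-fold). Lower were miR-20b-5p (20.3-fold, interval 9.37 to 48.3), miR-106a-5p (18.8-fold, 3.86 to 117, on 1.5 reads) and miR-92a-3p (4.50-fold), the last being the nearest to the limit. Just outside it lay miR-17-5p, 2.20-fold lower, while miR-20a-5p was 1.23-fold higher. Of the lower members, miR-20b-5p and miR-106a-5p passed the read minimum through spermatogonia, with 1188 and 247 reads there. Their place among the lower members therefore follows in part from that minimum. The median log2 ratio was -0.42 for these 8 members and -1.10 for all 471 miRNAs. These directions depend on the scaling. Spermatozoa had 5.57% of the reads of the 4 small RNA tables in the miRNA table, against 40.5% in spermatogonia, and scaling to the reads of all 4 tables moved each log2 ratio of this comparison by -2.86. With that scaling, 0 members were higher and 5 lower (3.82% and 76.0% of all miRNAs), and with the factor implied by the deposited normalised values 0 were higher and 4 lower (5.31% and 66.2%). Under these 2 scalings the miR-17-92 sum, 1.47-fold higher in RPM, was lower in spermatozoa (log2 ratio -2.30 and -1.57), as was miR-20a-5p (-2.56 and -1.82), whereas miR-18a-5p was at 0.70 and 1.43. The shifts under the other 3 scalings lay between 0.10 and 0.57. With DESeq2 factors and with the totals without the most abundant miRNAs, miR-92a-3p was no longer 4-fold lower (log2 ratio -1.60 and -1.81), leaving 3 members higher and 2 lower beside 18.7% and 31.2%, and 17.6% and 32.7%, of all miRNAs. The ratio of miR-106a-363 to miR-17-92 was 28.0-fold lower in spermatozoa (14.6 to 53.6) under any scaling of the libraries.

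The gametes differed from each other more in some single arms than in the miR-17-92 sum. Of 6 members with enough reads, 2 were at least 4-fold higher in spermatozoa than in the oocyte (background 26.7% of 300 miRNAs) and 2 at least 4-fold lower (26.3%). With 4 of 6 members apart, beside 53% of all miRNAs in either direction, the count itself was near the background. Higher were miR-18a-5p (18.4-fold, 15.9 to 21.5) and miR-19a-3p (6.04-fold, 5.00 to 7.37), and lower were miR-92a-3p (6.54-fold, 6.12 to 6.99) and miR-17-5p (6.25-fold, 5.80 to 6.75). Inside the limit miR-19a-3p was the nearest, and outside it miR-19b-3p at 3.20-fold higher. The miR-17-92 sum was 1.42-fold lower in spermatozoa (1.38 to 1.46), and the 5 other scalings moved each log2 ratio here by -0.57 to 0.26. The 4 arms of miR-106a-363 alone were below the read minimum here, with 9.17 reads in spermatozoa and 88.8 in the oocyte over all 4, and their ratio to miR-17-92 was 4.13-fold lower in spermatozoa (2.09 to 8.15).

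In the zygote the members stood close to the oocyte. Of the same 6 members, 0 were at least 4-fold apart, against 2.01% of 299 miRNAs higher and 1.34% lower in the zygote (3.34% in either direction), so the count was near the background. The member furthest apart was miR-18a-5p, at 147 RPM in the zygote and 94.5 in the oocyte, 1.56-fold (1.30 to 1.87). For miR-92a-3p the zygote was 1.33-fold lower (1.29 to 1.36), a direction that turns with the deposited factor, which moves each log2 ratio of this comparison by 0.75. In the zygote the miR-17-92 sum was 1.11-fold higher (1.09 to 1.13), and the interval of the miR-106a-363 sum, 1.28-fold lower, reached from 1.76-fold lower to 1.06-fold higher. With the deposited factor that sum was also higher in the zygote (log2 ratio 0.40).

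Between the zygote and spermatozoa the count of members apart was again near the background. In the zygote, 2 of 6 members were higher by at least 4-fold (background 26.3% of 308 miRNAs), miR-17-5p at 6.55-fold and miR-92a-3p at 4.93-fold, and 2 at least 4-fold lower (25.6%), miR-18a-5p at 11.8-fold and miR-19a-3p at 5.86-fold. In either direction it was 4 of 6, beside a background of 51.9%. With edgeR's scaling factors (background 32.5% higher and 18.2% lower) or the deposited one (34.1% and 15.6%), 2 members were higher and 1 lower. These shifted each log2 ratio by 0.65 and 0.96, and the other 3 scalings by -0.05 to 0.23. The comparisons with spermatozoa share that library, so they are not independent of each other.

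The other arms of the same hairpins are not among the 10 members, though they too were listed with earlier results of these data known. Of 12 other arms, 10 are entries in these tables, and miR-19a-5p and miR-19b-2-5p were not analysed here. From primordial germ cells to spermatogonia the other arms of miR-17-92 went from 794 to 603 RPM in sum, 1.32-fold lower, where the main arms were 8.21-fold lower. Those of miR-106a-363 went from 109 to 5.07 RPM, 21.5-fold lower (16.4 to 28.8). Within this, miR-363-5p had 875 reads in the fetal cells and 3 in spermatogonia, a ratio of 259 (88.3 to 1258), and miR-20b-3p had 330 and 36, a ratio of 8.14 (5.76 to 11.8). The difference between the clusters was thus also present in the sums of the other arms. Of the 7 measured ones, 2, both of miR-106a-363, were at least 4-fold lower, beside a background of 12.6%. Both passed the read minimum through primordial germ cells, where they are high, so this count adds no separate support. In the oocyte 0 reads of the 5 miR-106a-363 other arms were found, in the zygote 2, both of miR-363-5p, and in spermatozoa 6, all of miR-106a-3p, an arm at 0 reads in every other library. With these reads the percentage of the other arms of miR-106a-363 to those of miR-17-92 was 1.71% in spermatozoa (0.625% to 3.77%) and 0.841% in spermatogonia (0.631% to 1.10%), intervals that overlap.

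The balance between both arms of a hairpin was not fixed. Reads of miR-17-5p were 29.7 times those of miR-17-3p in primordial germ cells, 9.10 times in spermatogonia, 2.50 times in spermatozoa (interval 2.18 to 2.87), 34.7 times in the oocyte and 31.1 times in the zygote. Spermatozoa were thus the library where the minor arm of miR-17 came closest to the main one. For the 3 hairpins of miR-17-92 with both arms measured and a main arm of its own, the ratio was lower in spermatogonia than in primordial germ cells, by 3.26-fold for miR-17, 4.20-fold for miR-20a and 8.45-fold for miR-18a. It was also lower for miR-19b-3p over miR-19b-1-5p (1.77-fold) and miR-92a-3p over miR-92a-1-5p (2.98-fold), but these set a main arm made by both clusters against an arm of 1 hairpin, so they are not arm ratios of a single hairpin. From spermatogonia to spermatozoa, miR-17 alone of the 5 had a lower ratio. The ratio was higher in spermatozoa for miR-20a (127 against 50.7, 2.50-fold), for miR-19b (135 against 22.4, 6.03-fold) and for miR-92a (162.5 against 9.67, 16.8-fold, on 6 reads of miR-92a-1-5p). For miR-18a, spermatozoa had 2120 reads of miR-18a-5p and 0 of miR-18a-3p, so the ratio was above 574 there and 4.95 in spermatogonia. Among the miR-106a-363 hairpins, the ratio for miR-20b was 289 in primordial germ cells and 33 in spermatogonia. For miR-18b it was 127 and 3.1. For miR-363 it was 15.1 and 20.7 (interval in spermatogonia 6.75 to 103, on 3 reads of miR-363-5p), so no fall was seen there.

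The arm miR-92a-1-5p is specific to the chromosome 14 hairpin of miR-92a and miR-92a-2-5p to the X-linked one. The first had 3454 reads in primordial germ cells, 3972 in the spermatogonia, 6 in the spermatozoa, 2 in oocytes and 20 in zygotes. The second had 16, 5, 0, 0 and 0. In RPM miR-92a-1-5p was 1.30-fold higher in spermatogonia than in primordial germ cells, the sole measured arm of either cluster in that direction, which turns under the 3 scalings that move this comparison by a log2 value of -0.61, -0.64 and -0.71. Between spermatogonia and spermatozoa it was 75.6-fold lower (34.7 to 206), where miR-92a-3p was 4.50-fold lower. In the oocyte miR-92a-3p had 10538 reads beside those 2, so a high level of the main arm did not go with a measurable one of its partner.

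**Figure D4:**
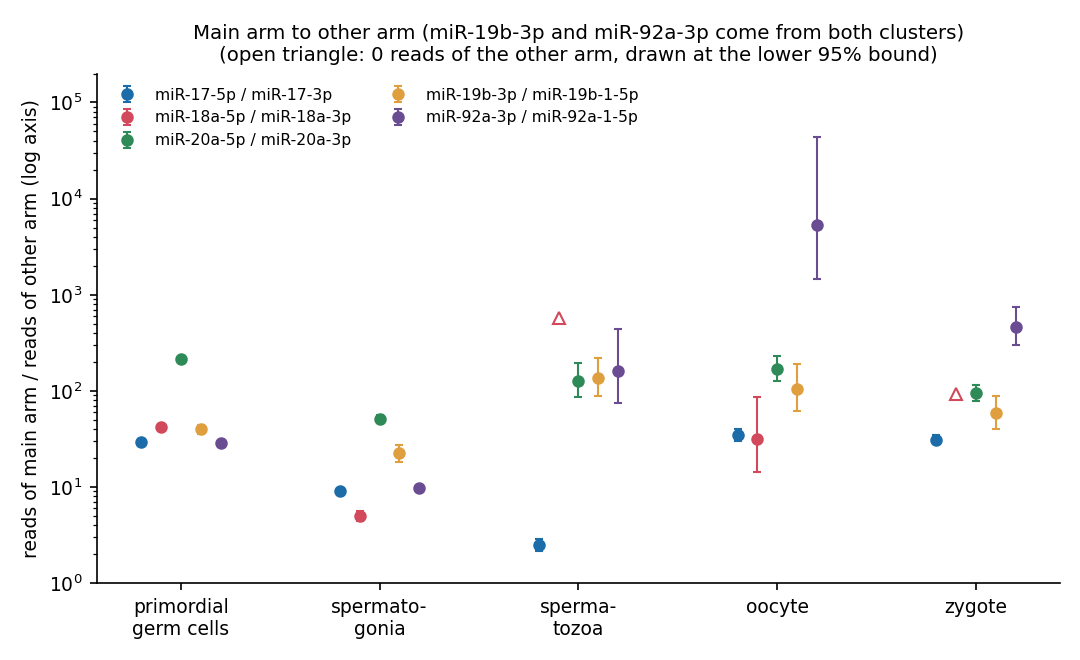
Reads of the main arm over reads of the other arm (log axis) for 5 pairs of arms in the 5 libraries, with exact 95% intervals; miR-19b-3p and miR-92a-3p are made by both clusters, so their pairs are not ratios within 1 hairpin. All 5 ratios lie lower in spermatogonia than in primordial germ cells, and miR-17 has its lowest ratio, 2.50, in spermatozoa.

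A shared seed lets other miRNAs stand beside the members, so the summed level of each seed was taken over all entries with a RefSeq sequence. These are 1090 of the 1316 entries and hold 91.8% of miRNA reads in primordial germ cells, 65.5% in the spermatogonia, 49.8% in the spermatozoa, 91.3% in oocytes and 92.3% in zygotes. Entries with no sequence there were left out, so further carriers cannot be seen. The miR-17 seed, AAAGUGC, had 6 carriers: the 4 members, and miR-93-5p and miR-106b-5p of miR-106b-25. They summed to 81509 RPM in primordial germ cells, 11046 in the spermatogonia, 9826 in the spermatozoa, 10933 in oocytes and 11314 in zygotes. Outside primordial germ cells the summed RPM thus lay between 9826 and 11314, while its sources differed. In all-table RPM the sums were 4468 in the spermatogonia, 548 in the spermatozoa, 508 in oocytes and 609 in zygotes, so the close values hold for RPM and not for that scale. Members held 46.1% of this sum in primordial germ cells, 33.2% in the spermatogonia, 33.8% in the spermatozoa, 70.0% in oocytes and 74.6% in zygotes. The leading carrier was miR-93-5p in the 3 male germ cell libraries, with 38281, 6587 and 6233 RPM, and miR-20a-5p in the zygote, while in the oocyte miR-17-5p and miR-20a-5p could not be told apart.

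The miR-92 seed, AUUGCAC, also differed in its sources between libraries. In RPM its sum was 12554 in primordial germ cells, 9132 in the spermatogonia, 6886 in the spermatozoa, 6449 in oocytes and 6537 in zygotes. On the all-table scale it was 5673, 3694, 384, 300 and 352 in the same order, so the closeness holds for RPM alone. The share of members, mostly miR-92a-3p, was 74.9%, 39.5%, 11.6%, 81.3% and 60.5%. In spermatogonia and spermatozoa miR-25-3p of miR-106b-25 led, with 5319 and 4842 RPM, and in the zygote miR-32-5p added 1750 RPM, against 598 in the oocyte. By contrast the miR-18 and miR-19 seeds, AAGGUGC and GUGCAAA, had no carrier outside the members among the entries with a sequence. Their sums therefore followed the members, with the miR-18 seed at 3725, 151, 1744, 96.5 and 149 RPM and the miR-19 seed at 1247, 243, 2743, 797 and 752 RPM in the same order of libraries.

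**Figure D5:**
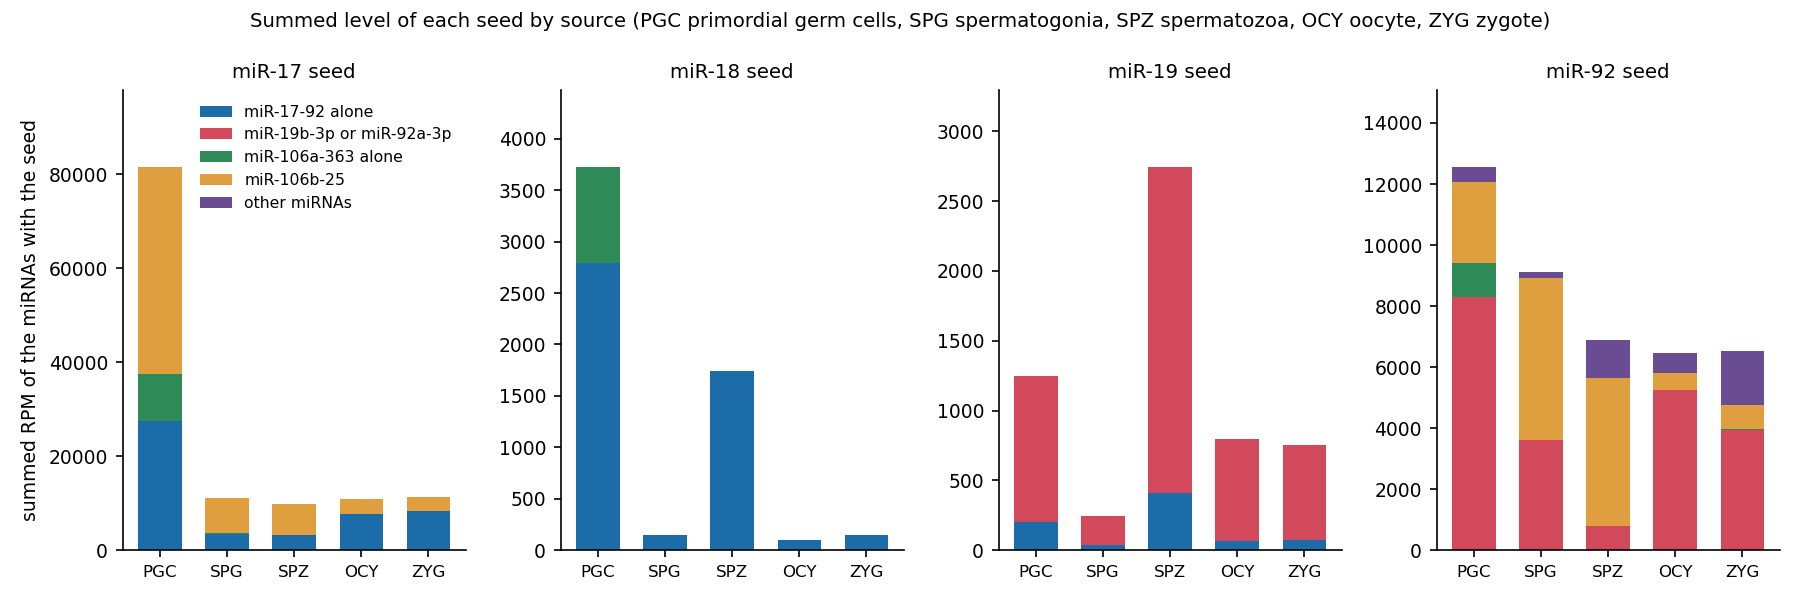
Summed RPM of the miRNAs with a RefSeq sequence (1090 of 1316 entries) that carry each of 4 seeds in the 5 libraries, coloured by source; each panel has its own axis from 0. The miR-17 and miR-92 seeds are shared with miR-106b-25, while no carrier of the miR-18 and miR-19 seeds other than the members was found among the entries with a sequence.

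For likeness, log2 RPM (with 0.5 reads added) was centred on its mean over the 5 libraries and compared by the root mean square difference, over 491 miRNAs with at least 100 reads in a library. Among miRNAs outside these clusters and miR-106b-25, those most like the miR-17-92 sum were miR-219a-2-3p (0.25), miR-148b-3p (0.30), miR-488-3p (0.48), miR-501-5p (0.53) and miR-101b-3p (0.59). Of these, miR-148b-3p (7530 RPM in primordial germ cells) and miR-101b-3p (17714 RPM) were abundant, and the other 3 were at no more than 29.1 RPM. In spermatozoa, where 3 reads are 2.47 RPM, miR-219a-2-3p was at 4.93 RPM, miR-488-3p at 1.64 and miR-501-5p at 7.40. The likeness of these 3 thus rests in part on few reads. For the miR-106a-363 sum the nearest was miR-291b-5p, at 1.40, with 2742 RPM in primordial germ cells, 31.1 in the spermatogonia, 0 in the spermatozoa, 18.9 in oocytes and 34.2 in zygotes. It was followed by miR-669h-5p (1.71), miR-760-3p (1.76), miR-135b-3p (1.77) and miR-7036b-5p (1.79), all at no more than 21.2 RPM in their highest library. That library was primordial germ cells, through which they passed the read minimum. In spermatozoa they were at 0, and in oocytes and zygotes at no more than 0.995 RPM. Their likeness thus rests largely on values near 0. The clusters themselves differed from each other by 2.86.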

How the data were processed

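The tables hold, for each entry, reads and a normalised value. The reads, as deposited by the authors and not always whole, were assumed to be counts or expected counts. All intervals rest on that assumption. The normalised value is a signal the authors call TMM, per the file headers. Bowtie 0.12.7, DESeq and mm10 are named without roles in the submitters' processing notes. Strandedness, mismatches and the handling of shared reads have no statement in the sources used.

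The 10 members, the gene lists and the rule for named miRNAs (all arms of these hairpins, carriers of their seeds, the 5 most alike, those nearest the limit) were chosen with earlier results of these data known. Reads were divided by the library's miRNA total; an absent entry counted as 0. Log2 ratios used 0.5 reads as pseudocount and at least 100 reads over a pair, with 4-fold as the limit. Ratios carry exact conditional Poisson intervals after rounding to whole reads, shares Clopper-Pearson ones, and comparisons of ratios between libraries a normal approximation on the log scale, all at 95%. No test was made, since each cell type has 1 library. The steps were checked on simulated reads. Python 3.11.15, pandas 2.3.3 and scipy 1.17.1 were used. Scaling alternatives were edgeR 4.0.16 TMM factors, DESeq2 1.42.0 size factors, the deposited factor, totals of all 4 tables and totals without the 5 most abundant miRNAs of each library. In the snoRNA tables, rows that name no single RNA were left out of totals: they held between 0.551% and 4.59% of the reads of those tables.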

Additional observations from a re-analysis of the deposited data

How the results depend on the processing

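No paired analysis was possible because each cell type has 1 library, and for the same reason no replicate could be left out. Of 90 alternative values for the ratios, the differences between clusters and the member counts, 68 stayed within the counting interval or within 1.5 times the count. The counts were compared as totals of both directions, so a change of direction does not show in them. Between spermatogonia and spermatozoa, 3 members higher and 3 lower became 0 and 5 with the reads of all 4 tables. With the deposited factor they became 0 and 4, and both cases are among the 68. Depth limits miR-106a-363 most, with 9.17 reads of its 4 arms in spermatozoa.

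Counting miR-19b-3p and miR-92a-3p for miR-17-92 brought the percentage of miR-106a-363 to miR-17-92 to 30.2% in primordial germ cells, 1.90% in spermatogonia, 0.321% in oocytes and 0.260% in zygotes. With the miR-17 seed alone it was 36.4% in primordial germ cells, and without the most abundant arm of each cluster 32.0% there, 2.09% in spermatogonia and 0.427% in the oocyte. The other arms gave 13.7%, 0.841% and 1.71% in primordial germ cells, spermatogonia and spermatozoa, and 0% in the oocyte.

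The difference in log2 ratio between the clusters, miR-106a-363 minus miR-17-92, was -3.35 from primordial germ cells to spermatogonia. It was -3.99 with miR-19b-3p and miR-92a-3p counted, -3.26 with the miR-17 seed alone, -3.93 without the most abundant arms and -4.02 with the other arms. From spermatogonia to spermatozoa it was -4.73, and with the other arms it was 1.13 (interval -0.056 to 2.31), on 6 reads of miR-106a-3p. With the other arms it was also 3.42 for spermatozoa over the oocyte (-0.74 to 7.58; -1.98 with the main arms), 1.66 for the zygote over the oocyte (-2.72 to 6.05; -0.50) and -1.76 for the zygote over spermatozoa (-3.87 to 0.36; 1.47). These 4 intervals include 0 and rest on 6 or fewer gamete or zygote reads of miR-106a-363, so no reversal is shown. Without the most abundant arms it was -0.017 for the zygote over the oocyte. With a minimum of 1 read, 7 members rather than 4 were at least 4-fold apart between spermatozoa and the oocyte, beside 65.1% rather than 53% of all miRNAs.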
